A study of Mus musculus with 9 samples.

Results

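The genes examined were 8 that receive or transmit Hedgehog signals: Gli1, Gli2, Gli3, Ptch1, Smo, Hhip, Boc and Gas1. Binding of HOXA13 and HOXD13 (HOX13 for the pair), homeodomain transcription factors of the distal limb, had been mapped by CUT&RUN in mouse distal forelimb, and each library was deposited as 1 list of called intervals. A called interval was assigned to a gene where its summit, the position of highest signal, lay in the gene body or within 100 kb on either side. Intervals of the 9 lists that shared at least 1 bp were merged into sites, and 349 of 187006 sites fell in the windows of these genes. Chromosome 2 was left out, because its coordinates are shifted in the mutant, and none of the 8 genes lies there.

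Wild type (wt) embryos gave 3 libraries with HOXA13 antibody and 3 with HOXD13 antibody, all at E12.5. HOXA13 was also profiled at E12.5 in 2 libraries from the mouse line 542. For HOXD13 this line gave 1 library, whose title says E11.5 although the growth protocol describes a collection at E12.5 for all. All were of the strain B6CBAF1 and came from crosses between heterozygous adults, with cells pooled over embryos according to the study's methods. Line 542 (genotype II1TDOM 542) descends from 1 founder and carries a single copy of the distal limb enhancer II1 with an HBB promoter and lacZ in the T-DOM landscape of the HoxD cluster, and its libraries were mapped on the mutant genome and not on mm10. Genotype and mapping genome therefore cannot be told apart. The study states that the 542 embryos profiled by CUT&RUN were homozygous for the inserted II1. The study describes a separate pool of embryos for each experiment, and different litters for HOX13 experiments that it ran in duplicate, but the labels tie no litter or pool to a library.

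Hedgehog ligands are read through the receptor Ptch1, which holds the signal transducer Smo inactive until ligand binds. Boc and Gas1 are co-receptors that present ligand, and Hhip is a membrane protein that sequesters it. Signal ends at the Gli transcription factors, of which Gli1 acts as an activator and is itself a target, Gli2 is the main activator, and Gli3 is mostly cut into a repressor. In the limb bud Sonic hedgehog from the posterior margin patterns the digits, and the 5′ Hox genes and Gli3 act in the same tissue. Ptch1, Gli1 and Hhip are also textbook targets of the pathway.

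Sequences at the summits of representative sites were taken from GRCm38, the assembly of mm10, and are given on its plus strand. They show, of each gene's sites called in all 6 wt lists, the strongest that does not lie in an exon of a protein-coding gene, and some of the sites that the comparisons turn on. Capitals mark the HOX13 consensus (CCNATAAA, CCNGTAAA, CTNATAAA or CTNGTAAA, either strand) except at the Ptch1 promoter, where they mark the GLI-type sequence GACCACCCA in its reverse orientation. A plus sign before a distance means downstream of the gene's start in the direction of transcription.
Gli2 +228 kb, past the 3′ end, chr1:118825607-118825707: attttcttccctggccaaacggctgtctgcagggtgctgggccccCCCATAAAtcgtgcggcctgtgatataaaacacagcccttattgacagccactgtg
Gli3 +236 kb, intron, chr13:15699070-15699170: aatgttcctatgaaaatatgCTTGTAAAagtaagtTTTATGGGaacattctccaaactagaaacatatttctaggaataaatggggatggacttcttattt
Ptch1 promoter, chr13:63573455-63573483: gccctcggcgTGGGTGGTCtgccgcgcca
Ptch1 +48.2 kb, intron, chr13:63525354-63525454: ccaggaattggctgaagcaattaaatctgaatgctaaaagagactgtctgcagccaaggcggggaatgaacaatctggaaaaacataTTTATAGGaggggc
Ptch1, 53.8 kb upstream, chr13:63627364-63627464: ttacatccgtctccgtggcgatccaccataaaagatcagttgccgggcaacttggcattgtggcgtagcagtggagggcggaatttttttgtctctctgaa
Hhip +185 kb, intergenic, chr8:79872926-79873026: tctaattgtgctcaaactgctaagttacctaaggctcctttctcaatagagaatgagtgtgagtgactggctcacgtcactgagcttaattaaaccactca
Hhip +45.7 kb, intron, chr8:80012242-80012342: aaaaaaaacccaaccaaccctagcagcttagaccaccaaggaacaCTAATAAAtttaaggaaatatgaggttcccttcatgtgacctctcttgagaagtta
Hhip +62.4 kb, intron, chr8:79995523-79995623: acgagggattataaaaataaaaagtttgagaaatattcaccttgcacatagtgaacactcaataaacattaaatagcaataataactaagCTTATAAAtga
Boc, 57.7 kb upstream, chr16:44616524-44616624: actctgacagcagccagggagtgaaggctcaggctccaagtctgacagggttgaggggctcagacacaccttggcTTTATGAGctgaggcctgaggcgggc
Boc +6.18 kb, intron, chr16:44552666-44552766: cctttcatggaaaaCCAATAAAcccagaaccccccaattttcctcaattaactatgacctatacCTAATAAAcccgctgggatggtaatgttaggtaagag
Gas1 +66.7 kb, in A530065N20Rik, chr13:60110637-60110737: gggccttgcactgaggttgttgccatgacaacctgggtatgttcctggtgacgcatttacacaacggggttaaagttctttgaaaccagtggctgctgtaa
Gas1 +43.3 kb, past the 3′ end, chr13:60133987-60134087: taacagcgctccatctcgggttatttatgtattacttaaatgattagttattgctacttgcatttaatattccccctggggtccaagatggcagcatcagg
Smo +34.5 kb, in an Ahcyl2 intron, chr6:29769940-29770040: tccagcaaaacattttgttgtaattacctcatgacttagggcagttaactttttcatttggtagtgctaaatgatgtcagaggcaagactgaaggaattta
Gli1 +29.7 kb, Mars promoter, chr10:127312223-127312323: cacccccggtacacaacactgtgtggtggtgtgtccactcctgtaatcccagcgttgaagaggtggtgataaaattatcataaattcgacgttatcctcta

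Libraries differed in yield. Lists held between 23939 and 117719 intervals, and the read ends behind them, recovered from the background in each list, ranged from 36.9 to 65.5 M. HOXD13 replicate 1 had the shortest list and the 542 HOXD13 library the longest. Replicate 3 of both wt groups carried other run names in the peak names, and HOXD13 replicate 3 is labelled as a reanalysis of an earlier library. In these replicates 12.7% and 12.8% of intervals reached a fold enrichment of 5, against 20.8% to 32.1% in the other wt libraries. Fold enrichment here is the pileup of read ends at a summit over the local background.

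The windows of the 8 genes were densely occupied by called intervals. Counts in the 8 windows together were 165, 120 and 114 in the wt HOXA13 libraries, and 61, 168 and 84 in the wt HOXD13 libraries. The 542 libraries gave 177 and 132 intervals with HOXA13 and 225 with HOXD13. HOXD13 replicates spread more widely than HOXA13 replicates, and their range covered that of HOXA13. The median over the genes was 50.5 intervals per Mb in a typical wt library, against 26.4 per Mb over all 19912 protein-coding genes. The ratio of these medians was above 1 in each of the 9 libraries and ran from 1.62 to 2.76 over the 6 wt libraries (median 2.02, SD 0.422, n = 6). It was 1.67, 1.89 and 1.87 in the 542 libraries. No test was applied, since the genes were chosen with results of these data known.

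Density differed among the genes. Gas1 had the highest median over wt libraries, with 73.9 intervals per Mb, a level that 0.849% of all protein-coding genes reached. Boc and Ptch1 followed at 56.6 and 56.5 per Mb, which 4.78% and 4.81% of genes reached. Gli3 with 51.4, Gli1 with 49.5, Smo with 44.3 and Hhip with 41.1 per Mb came next. Gli2 was lowest at 26.2 per Mb, a level reached by 50.4% of genes. Gas1 was above Gli2 in each of the 6 wt libraries, by very little in HOXD13 replicate 2, whereas neighbours in this order overlapped across libraries. For Gas1 the wt HOXA13 values were 88.7, 69.0 and 93.6 per Mb and the wt HOXD13 values 49.3, 78.8 and 59.1 per Mb. For Gli2 they were 54.8, 31.0 and 21.5 per Mb with HOXA13 and 16.7, 78.7 and 11.9 per Mb with HOXD13, so that a single library, HOXD13 replicate 2, stood at the top.

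**Figure D1:**
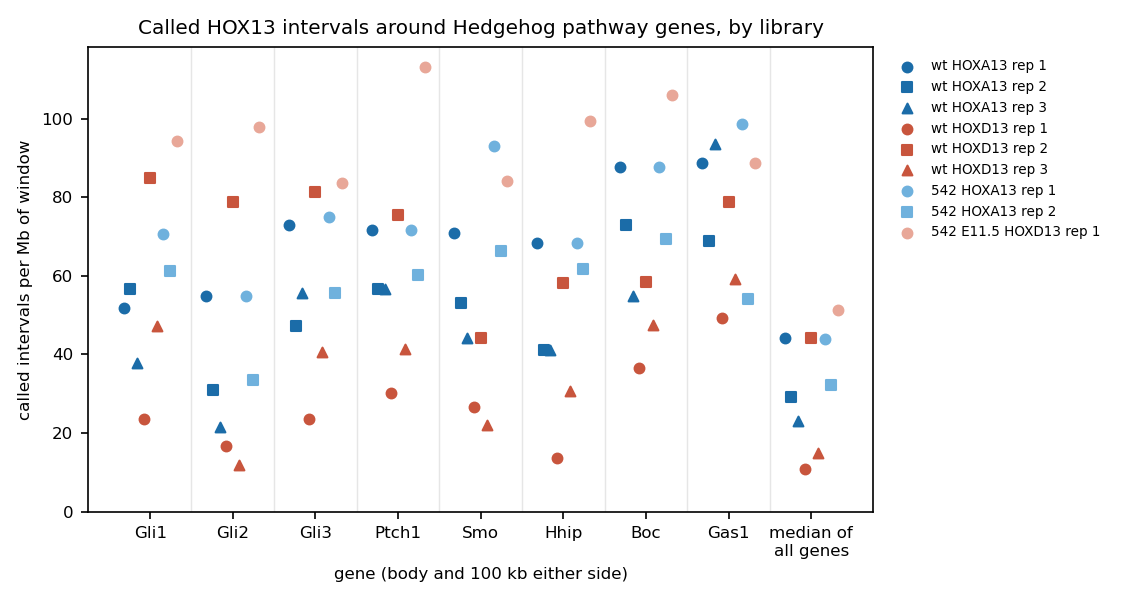
Called intervals per Mb of each gene's window (gene body and 100 kb either side) in each of the 9 libraries, with the median over all protein-coding genes at the right. Colours separate antibody and genotype and marker shapes the replicate. Gas1 has the highest wt median (73.9 per Mb) and Gli2 the lowest (26.2 per Mb).

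Intronic and intergenic sites made up most of the 349. There were 144 sites in introns of the genes themselves and 106 in intergenic sequence. A further 50 lay inside other protein-coding genes, 20 inside noncoding genes and 16 at promoters of other genes. Promoters of the 8 genes held 8 sites and their exons 5. Gli3 and Gli2, the longest genes, had the most sites (68 and 65), with 50 and 39 of them in their own introns. Gas1 and Smo had few or no intronic sites (0 of 33 and 2 of 30), and the same held for Gli1 (2 of 29). The bodies of these genes span only 2961, 25863 and 12093 bp, which limits how many intronic sites they can hold. Intronic counts thus reflect gene structure and are not a measure of binding preference. The Gli1 window holds 10 other protein-coding genes, and 18 of its sites lay inside other genes and 7 at their promoters.

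Recurrence across lists was uneven. All 6 wt lists called 39 of the 349 sites (11.2%), against 6.9% of all merged sites. The 9 lists together shared 35 (10.0%), against 6.4%. By contrast, 159 sites (45.6%) appeared in only 1 list, where the share was 50.0% of all sites. Of these, 68 belonged to the 542 HOXD13 library and 33 to wt HOXD13 replicate 2. No wt list called 106 of the 349 sites, against 34.3% of all sites. Promoters of other genes had the highest share of sites in all 6 wt lists (8 of 16), followed by promoters of the 8 genes (2 of 8). The share was 13 of 106 for intergenic sites, 14 of 144 for introns, and 1 of 50 inside other coding genes. Shares by class over all merged sites were not computed, so these cannot be read as particular to these genes. Gli3, Ptch1 and Boc each had 7 sites called in all 6 wt lists, Gas1 had 6, and Gli1, Gli2, Smo and Hhip had 3.

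**Figure D2:**
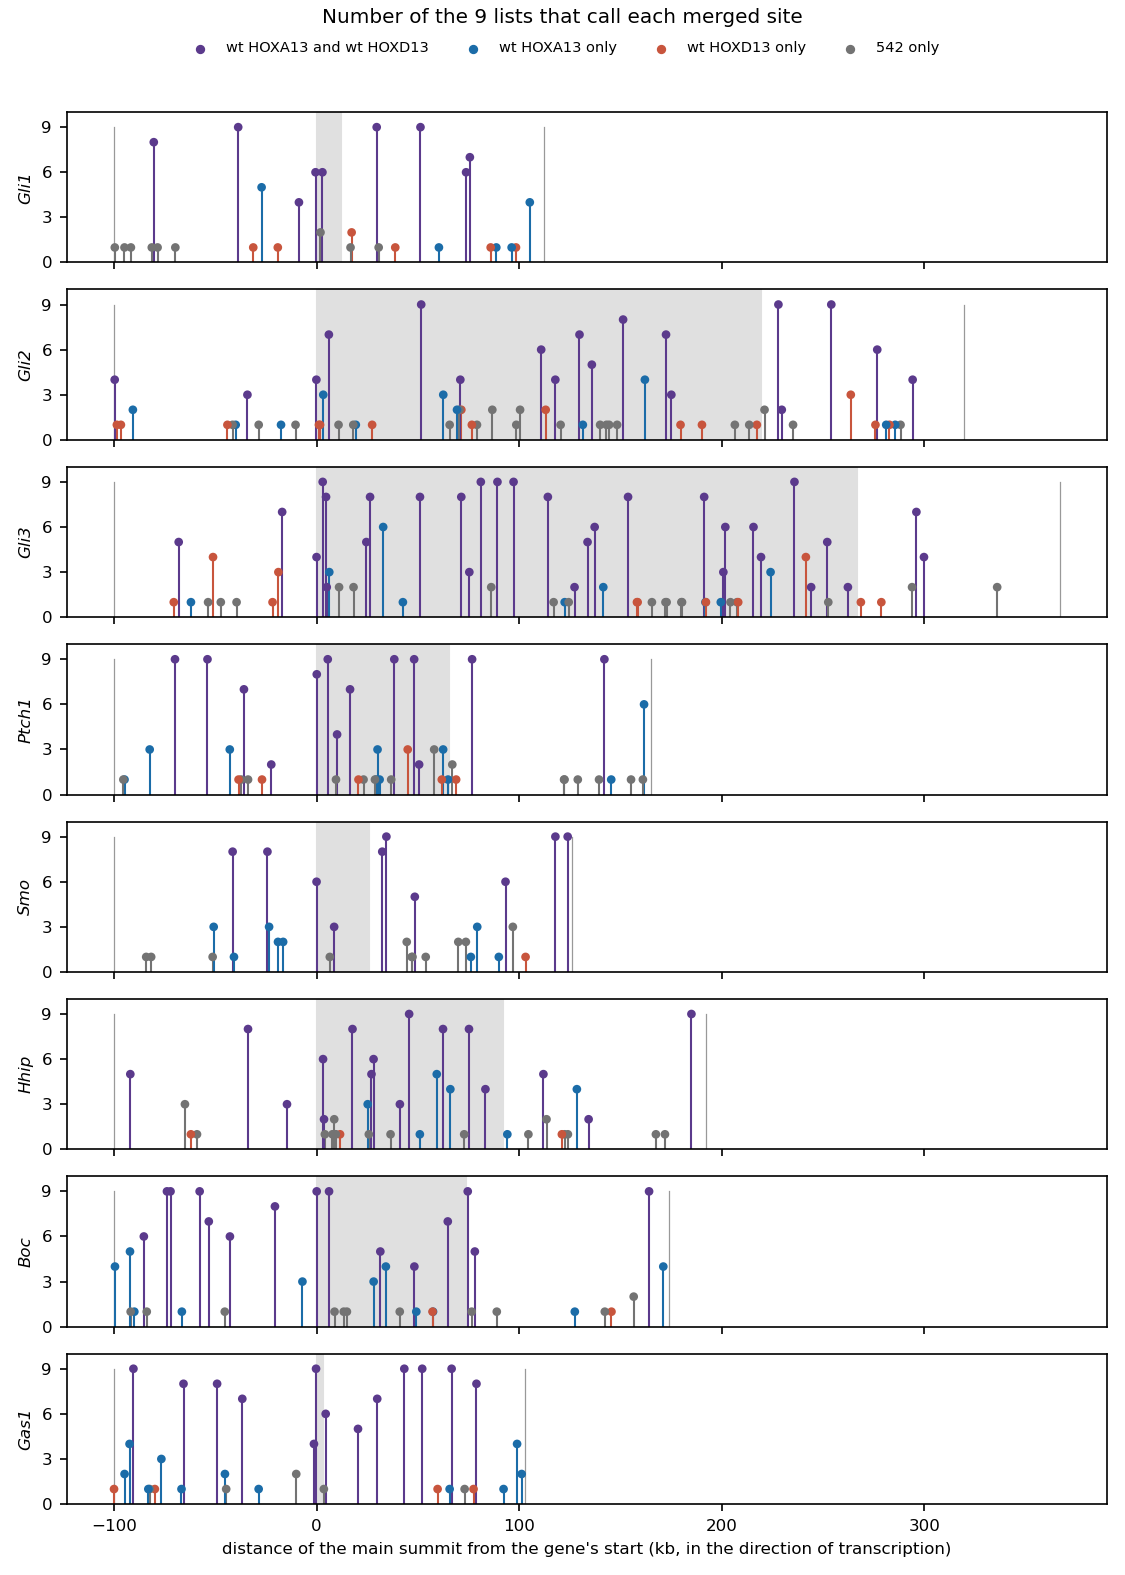
Each stem is a merged site, placed by the distance of its summit from the start of the gene (kb, in the direction of transcription), and its height is the number of the 9 lists that call it. Grey shading is the gene body, thin grey lines end the window, and colours show which wt antibodies called the site. Sites in all 9 lists number 35, and low stems in 1 list number 159.

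Of 243 sites called in any wt list, 124 were called with both antibodies, 71 only with HOXA13 and 48 only with HOXD13. The matching split over all sites was not computed, so these counts cannot be read as particular to these genes. Only 2 sites were called in all 3 wt HOXA13 lists and no wt HOXD13 list, against 0.899% of all sites, and none showed the opposite pattern (0.0187%). These were an intronic Gli3 site at +32.9 kb and a site at +162 kb of Ptch1 inside Fancc, a DNA repair gene. At the Gli3 site fold enrichment was 3.33, 3.31 and 3.60 in wt HOXA13, and at the Ptch1 site 5.07, 3.29 and 3.12. Both were called in the 542 HOXD13 library, with values of 5.19 and 2.87. Another 20 sites were called in 3 wt HOXA13 and 2 wt HOXD13 lists (4.17% of all sites), and there was none of the reverse. The share of the reverse over all sites was not computed, so its absence cannot be read as particular to these genes. The missing list was HOXD13 replicate 1 for 12 of the 20, replicate 3 for 7 and replicate 2 for 1, and HOXD13 replicates 1 and 3 had the lowest depths.

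Promoters were counted as called where a summit lay within 1000 bp of an annotated transcript start. The promoters of Ptch1, Boc and Gas1 were called in all 9 lists, and hence in all 6 wt lists. This is 3 of 8 promoters, against 20.4% of protein-coding promoters in all 9 lists and 20.6% in all 6 wt lists. Gli1 was called in 6 lists, of which 4 were wt, and Smo in 6, of which 3 were wt. Gli2 and Gli3 were each called in 4 lists, of which 2 were wt, namely HOXA13 replicate 1 and HOXD13 replicate 2. Hhip was called in none of the 9 lists, whereas 35.6% of promoters were called in no wt list, and its nearest summit lay between 2790 and 45795 bp from a start. No merged site at a promoter of the 8 genes held the HOX13 consensus in its summit window. Nor did any site at a promoter of another gene called in all 6 wt lists. For a peak over the HBB promoter of the inserted construct, the study proposes non-specific cutting by the CUT&RUN enzyme. Peaks were called with no control, and whether promoter sites here are of that kind was not tested.

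Among these promoters Gas1 had the highest fold enrichment in each of the 6 wt libraries. Its site lay 0.23 kb upstream of the start, with fold enrichments of 6.93, 7.63 and 3.60 in wt HOXA13 and 6.43, 7.41 and 4.23 in wt HOXD13. In the 542 libraries it reached 5.18 and 6.94 with HOXA13 and 10.6 with HOXD13. Antibodies overlapped in these values. The Boc promoter was called in every list but weakly, at 3.02, 2.78 and 2.58 in wt HOXA13 and 2.61, 3.15 and 3.27 in wt HOXD13.

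The Ptch1 promoter gave 4.98, 3.76 and 3.46 in wt HOXA13 and 2.83, 6.49 and 4.11 in wt HOXD13. In the 542 libraries it gave 7.07 and 6.11 with HOXA13 and 8.82 with HOXD13, of which the first was above the Gas1 promoter in the same library and the others below. The summit of wt HOXD13 replicate 1 was another one, 734 bp from a start, whereas the other wt summits lay within 122 bp. The merged site there, 0.12 kb inside the annotated gene, was called in 8 lists. Its window holds the GLI-type sequence printed above, centred 7 bp from the summit. Windows with GACCACCCA on either strand were rare, being 2 of the 349 sites (0.573%). Of the windows 1000 bp to either side of these sites, 1 of 698 (0.143%) held it. The share over all merged sites was not computed. Among sites called in all 6 wt lists it was 0 of the 39 near these genes and 0.062% of all. No match says only that these letters are not in the window.

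The other 18 pathway genes on a list drawn up for comparison showed a similar spread. Of their promoters 4 were called in all 6 wt lists: Disp1, which releases ligand, Sufu, which restrains Gli proteins, Spop, an adaptor for their degradation, and Gsk3b, a kinase that phosphorylates them. Another 11 were called in some wt lists and 3 in none. Of the ligand genes, Shh and Dhh were called in none of the 9 lists and Ihh in 3. Evc2, a ciliary protein gene, was also called in none. For Shh this depended on the 1000 bp limit. Its nearest summit lay 1076 to 1804 bp from a start, except in wt HOXA13 replicate 2 (9138 bp). For Dhh the nearest summit lay 4580 to 17087 bp away.

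Strength of a site is given as the percentile of fold enrichment within each list, a rank that still depends on the weak intervals each list holds. The highest was Gli2 +228 kb, an intergenic site 8.48 kb past the 3′ end of Gli2 (summit chr1:118825657). Its fold enrichment was 17.95, 16.1 and 7.01 in wt HOXA13, 12.4, 15.1 and 6.19 in wt HOXD13, 16.6 and 16.2 in 542 HOXA13, and 12.1 in 542 HOXD13. In every library it ranked above the 95th percentile, from 95.7 to 99.9, with a wt median of 99.8. Replicate 3 was lowest for either antibody. The pileup behind these values ran from 111 read ends (exact Poisson 95% interval 91.3 to 134) in wt HOXD13 replicate 3 to 1345 (1274 to 1419) in wt HOXA13 replicate 1. These intervals treat read ends as independent and cover counting error at most. They are too narrow where both ends of a fragment, or duplicates, were counted.

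Gli2 had a pair of further strong sites. One lay 34.6 kb past the 3′ end (+254 kb, wt median percentile 95.6) and the other in an intron at +51.7 kb (97.6). The intronic site had fold enrichments of 15.8, 11.9 and 6.75 in wt HOXA13 and 8.81, 9.16 and 2.91 in wt HOXD13, and of 17.6, 15.8 and 15.9 in the 542 libraries. Its lowest value, in HOXD13 replicate 3, fell at the 20.9th percentile of that list. Thus Gli2 was the gene with the sparsest window and also the gene with the strongest site.

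Gas1, whose gene body is only 2961 bp long, had its strongest sites on both sides at a distance. The site at +66.7 kb, inside the noncoding gene A530065N20Rik, had a wt median percentile of 98.8 and fold enrichments of 17.1, 14.6 and 5.74 in wt HOXA13 and 7.89, 12.49 and 7.21 in wt HOXD13. Those at +43.3 and +52.2 kb had 95.9 and 93.9, and one 90.4 kb upstream had 93.9. None of the 6 recurrent Gas1 sites held the HOX13 consensus in its window.

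At Boc the strongest site was the promoter of Cfap44, a ciliary and flagellar gene, at +164 kb (98.4). Fold enrichment there ran from 7.21 in wt HOXD13 replicate 1 to 15.4 in 542 HOXD13. Replicate 3 gave 9.61 with wt HOXA13, the lowest of that group, and 10.8 with wt HOXD13, between the others. The recurrent sites closer to Boc were weaker: 57.7 kb upstream (81.8), 73.8 kb upstream (80.6), and an intronic site at +6.18 kb (71.5). Each of these held the consensus, whereas the recurrent sites at +74.6 kb (47.1), at the Boc promoter (22.7) and 72.1 kb upstream (43.5) did not.

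Ptch1 had 3 recurrent sites in its introns (+5.55, +38.4 and +48.2 kb), a pair upstream at 53.8 and 69.8 kb, and a pair at promoters of Fancc (+76.8 and +142 kb). The site 53.8 kb upstream was strongest, at 88.4, with fold enrichments of 11.7, 7.72 and 4.89 in wt HOXA13 and 5.15, 10.2 and 4.13 in wt HOXD13. The intronic site at +48.2 kb, at 81.6, held the consensus 40.5 bp from its summit.

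Gli3 carried 7 recurrent sites, all of them intronic. The strongest was at +236 kb (89.7), then +81.1 kb (84.5) and +154 kb (77.1). Fold enrichment at +236 kb was 10.3, 7.74 and 5.30 in wt HOXA13, 3.34, 6.22 and 5.17 in wt HOXD13, 6.10 and 7.46 in 542 HOXA13 and 2.87 in 542 HOXD13. Its window holds the consensus at a pair of positions, in opposite orientations.

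The recurrent sites near Smo and Gli1 were mostly at other genes. Smo +124 kb (94.2) and +118 kb (85.5) were promoters of Ahcyl2, which regulates ion transport, and +34.5 kb (86.3) lay in an Ahcyl2 intron. At Gli1 they were the promoters of R3hdm2, 38.7 kb upstream (84.5), of Mars, a tRNA synthetase gene, at +29.7 kb (74.8), and of Ddit3, a stress response factor gene, at +51.3 kb (63.2). Hhip had recurrent sites at +185 kb (88.4) and in its introns at +62.4 kb (78.4) and +45.7 kb (57.5).

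As a group the 39 recurrent sites were of ordinary strength. Their median percentile was 81.6, against 81.9 over all 12895 sites called in all 6 wt lists, and 9 of 39 (23.1%) exceeded the 90th percentile, against 27.3%.

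**Figure D3:**
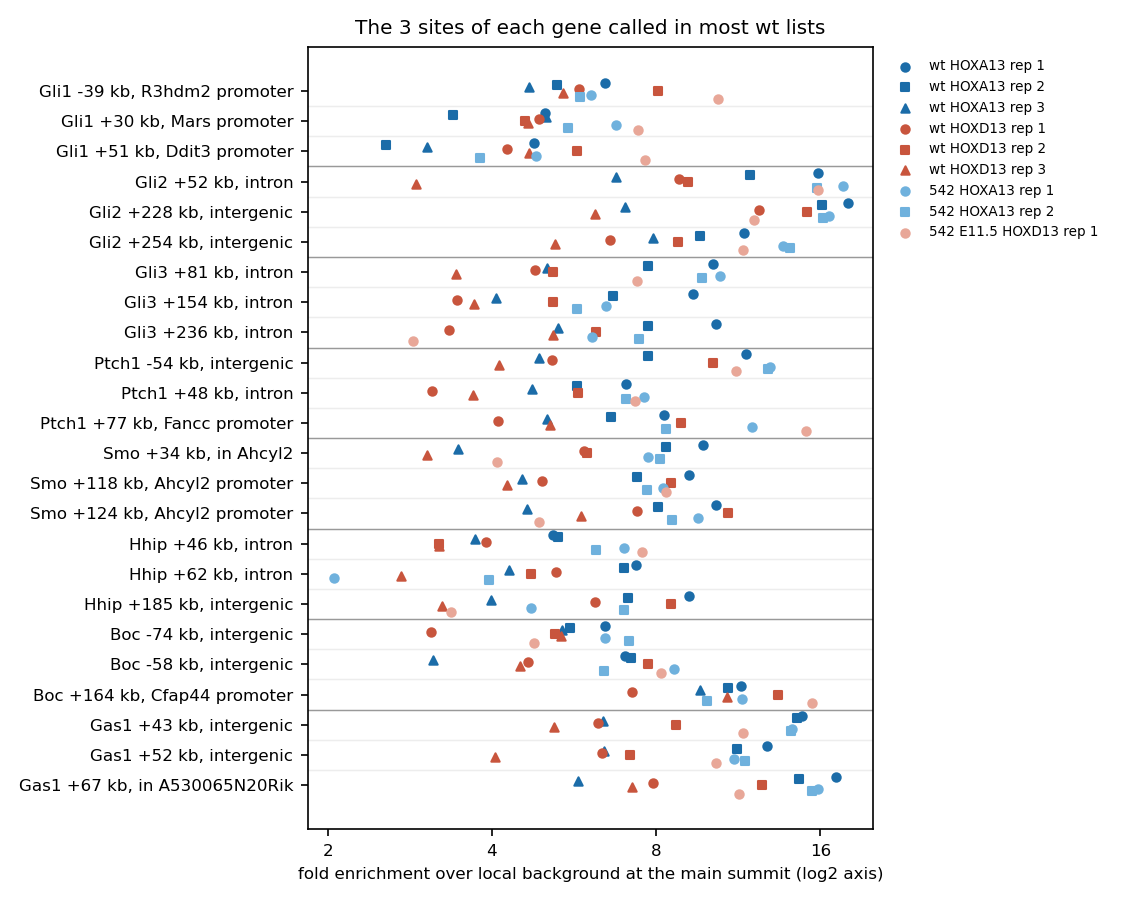
Fold enrichment over local background (log2 axis) in each library at the 3 sites of each gene called in most wt lists, labelled by distance from the gene's start and annotation. Colours separate antibody and genotype and shapes the replicate. Gli2 +228 kb reaches 17.95, and replicate 3 (triangles) tends to lie to the left.

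The HOX13 consensus was sought in windows reaching 50 bp to either side of the summits. It was present at 8 of the 39 recurrent sites (20.5%) and in 5 of 78 windows placed 1000 bp to either side (6.41%). Over all sites called in the 6 wt lists the shares were 25.8% and 4.68%. The shorter core ATAAA or GTAAA, which the consensus contains, was present at 66.7% of recurrent sites and in 39.7% of their flanking windows. Sites called in 1 list held the consensus in 15.7% of windows, compared with 12.4% of all such sites. At Gli2 +228 kb and Hhip +45.7 kb the match was centred 1.5 bp from the summit, and at the site 73.8 kb upstream of Boc 5.5 bp from it. Matches by gene were 3 of 7 recurrent sites for Boc, 2 of 3 for Hhip, 1 of 3 for Gli2, 1 of 7 for Gli3 and for Ptch1, and 0 for Gas1, Gli1 and Smo. The match at Gli2 +228 kb reads CCCATAAA and that at Hhip +45.7 kb CTAATAAA. Ptch1 +162 kb, one of the sites called only with HOXA13 in wt, held TTTATTGG, the reverse complement of a CCNATAAA match, at a pair of positions.

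To ask whether either antibody gave more signal at a site, log2 pileups, scaled to the read ends of each library, were centred on its median over the sites and compared over the 12895 sites called in all 6 wt lists with limma. HOXA13 and HOXD13 differed at 14 sites (0.109%), all higher with HOXD13, and at 0 of the 39 sites near these genes by limma with Benjamini-Hochberg adjustment. At an unadjusted p under 0.05 there were 7 of the 39, and 2427 of all 12895. On simulated data with the spread of these libraries, the fit called 2% of planted log2 changes of 1 and 50% of 2. The lack of calls near these genes therefore does not show that the antibodies gave equal signal there. Without centring the median over all sites was 0.52 higher with HOXA13 on the log2 scale, and again no site near these genes was called.

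With replicate 3 of both antibodies left out, the same fit called 24.0% of all sites and 9 of the 39 sites, of which 4 were higher with HOXA13 (14.1% of all sites) and 5 with HOXD13 (9.92%). Members and background thus had similar shares. Higher with HOXA13 were Gas1 +43.3 kb (log2 difference 1.40 ± 0.21 SE, adjusted p = 0.00049), Gas1 +52.2 kb (1.07 ± 0.22), Gli3 +81.1 kb (0.87 ± 0.23) and Gli2 +51.7 kb (0.65 ± 0.21). Higher with HOXD13 were the Ddit3 and R3hdm2 promoters near Gli1 (-1.58 ± 0.28 and -1.05 ± 0.26), Ptch1 +5.55 kb (-0.95 ± 0.25), the site 69.8 kb upstream of Ptch1 (-0.92 ± 0.31) and the Gas1 promoter (-0.62 ± 0.21). Over all 6 libraries the difference at Gas1 +43.3 kb was 1.05 ± 0.30 (adjusted p = 0.14), and its centred pileups (read ends per M of the library, with library medians set equal) did not overlap between antibodies, being 4.0, 4.66 and 2.64 with HOXA13 and 1.71, 1.56 and 2.07 with HOXD13. At the Ddit3 promoter the values were 0.714, 0.471 and 0.686 with HOXA13 and 1.58, 1.89 and 1.42 with HOXD13, again without overlap (-1.40 ± 0.28, adjusted p = 0.082). The Gas1 promoter overlapped, with 2.11, 2.36 and 1.45 against 3.29, 3.56 and 2.33. Gli2 +228 kb also overlapped between antibodies, whereas Gli2 +254 kb and the Mars promoter near Gli1, called in neither fit, did not. The share of all sites without overlap was not computed. Within the Gas1 window the sites at +43.3 and +52.2 kb and the promoter thus had differences of opposite sign in replicates 1 and 2.

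**Figure D4:**
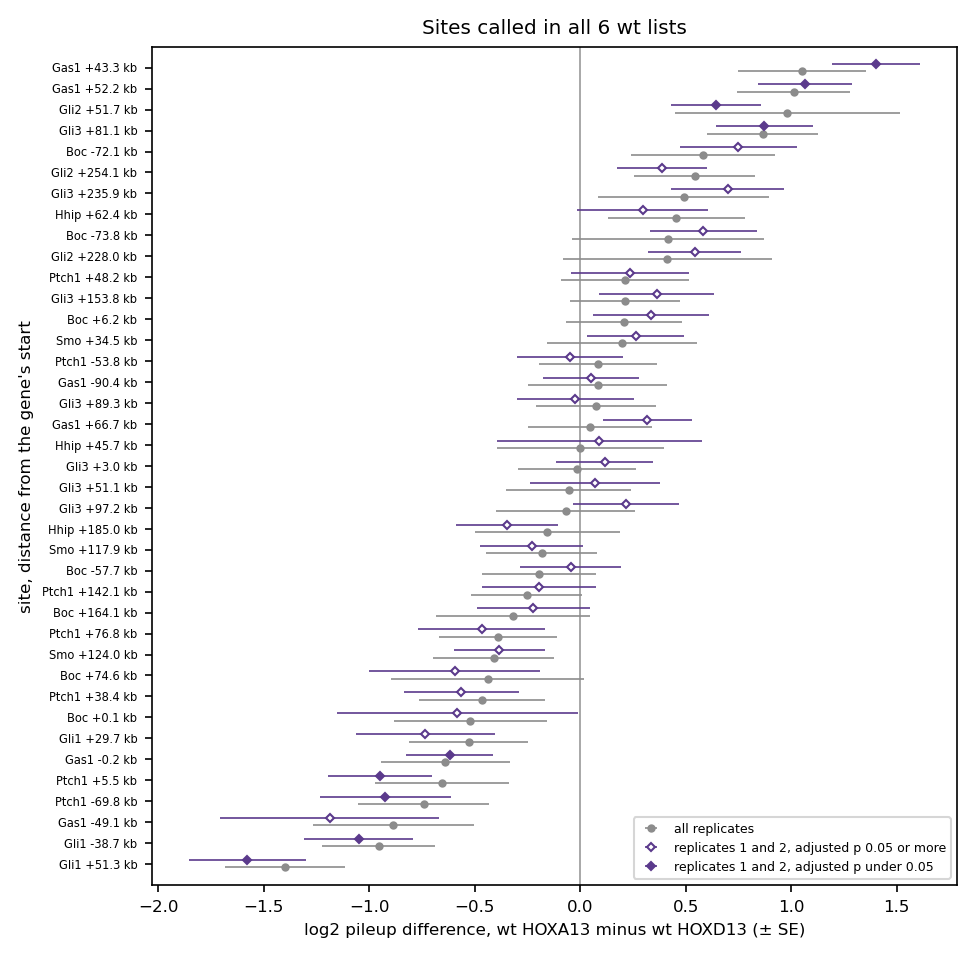
Log2 difference in pileup between wt HOXA13 and wt HOXD13 (± SE) at the 39 sites called in all 6 wt lists, from all replicates (grey) and from replicates 1 and 2 only (purple, filled where the adjusted p of limma is under 0.05). Positive values are higher with HOXA13. With all replicates 0 of the 39 pass, and with replicates 1 and 2 only 9 pass.

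Whether HOXA13 signal differed between wt and 542 was examined at 26121 sites called in all 5 HOXA13 lists, 64 of them near these genes. No site was called by limma, near these genes or elsewhere (0.0%), while 4905 of all sites and 8 of the 64 had an unadjusted p under 0.05. On simulated data with the spread of these 5 libraries the same fit also made no calls at sites with planted changes, so the lack of calls does not show that sites did not differ. With wt replicate 3 left out, 24.9% of all sites were called and 14 of the 64. Of these 14, 11 were higher in wt (12.8% of all sites) and 3 higher in 542 (12.1%).

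Hhip had sites in both directions. At Hhip +62.4 kb the centred pileups were 1.69, 1.76 and 1.82 in wt and 0.320 and 0.729 in 542 (log2 difference 1.87 ± 0.36 SE, limma adjusted p = 0.088 over all 5 libraries). In replicates 1 and 2 alone the difference was 1.84 ± 0.28 (adjusted p = 1.9e-06). The recovered pileups were 115, 66 and 52 read ends in wt and 28 and 38 in 542, and the 542 HOXD13 library did not call the site. Hhip +185 kb was also higher in wt, at 1.52, 1.55 and 1.02 against 0.411 and 0.805 (1.22 ± 0.36, adjusted p = 0.13). Hhip +17.8 kb, an intronic site called in 5 wt lists, was higher in 542, at 1.12, 1.23 and 0.736 in wt and 2.11 and 1.73 in 542 (-0.93 ± 0.31, adjusted p = 0.16). Groups did not overlap at any of these 3 sites. Nor did they at Ptch1 +162 kb or 53.8 kb upstream of Ptch1, where the limma adjusted p was 0.48 and 0.42. Non-overlap was thus not particular to the sites named here, and its share over all sites was not computed. At Gli3 +236 kb wt was higher without overlap, at 1.71, 1.71 and 2.59 against 0.719 and 1.09 (1.15 ± 0.32, adjusted p = 0.12). Gli2 +228 kb gave 19.8, 18.4 and 5.96 in wt and 9.58 and 12.0 in 542 (0.27 ± 0.51), where wt replicate 3 lay below both 542 libraries and the others above.

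**Figure D5:**
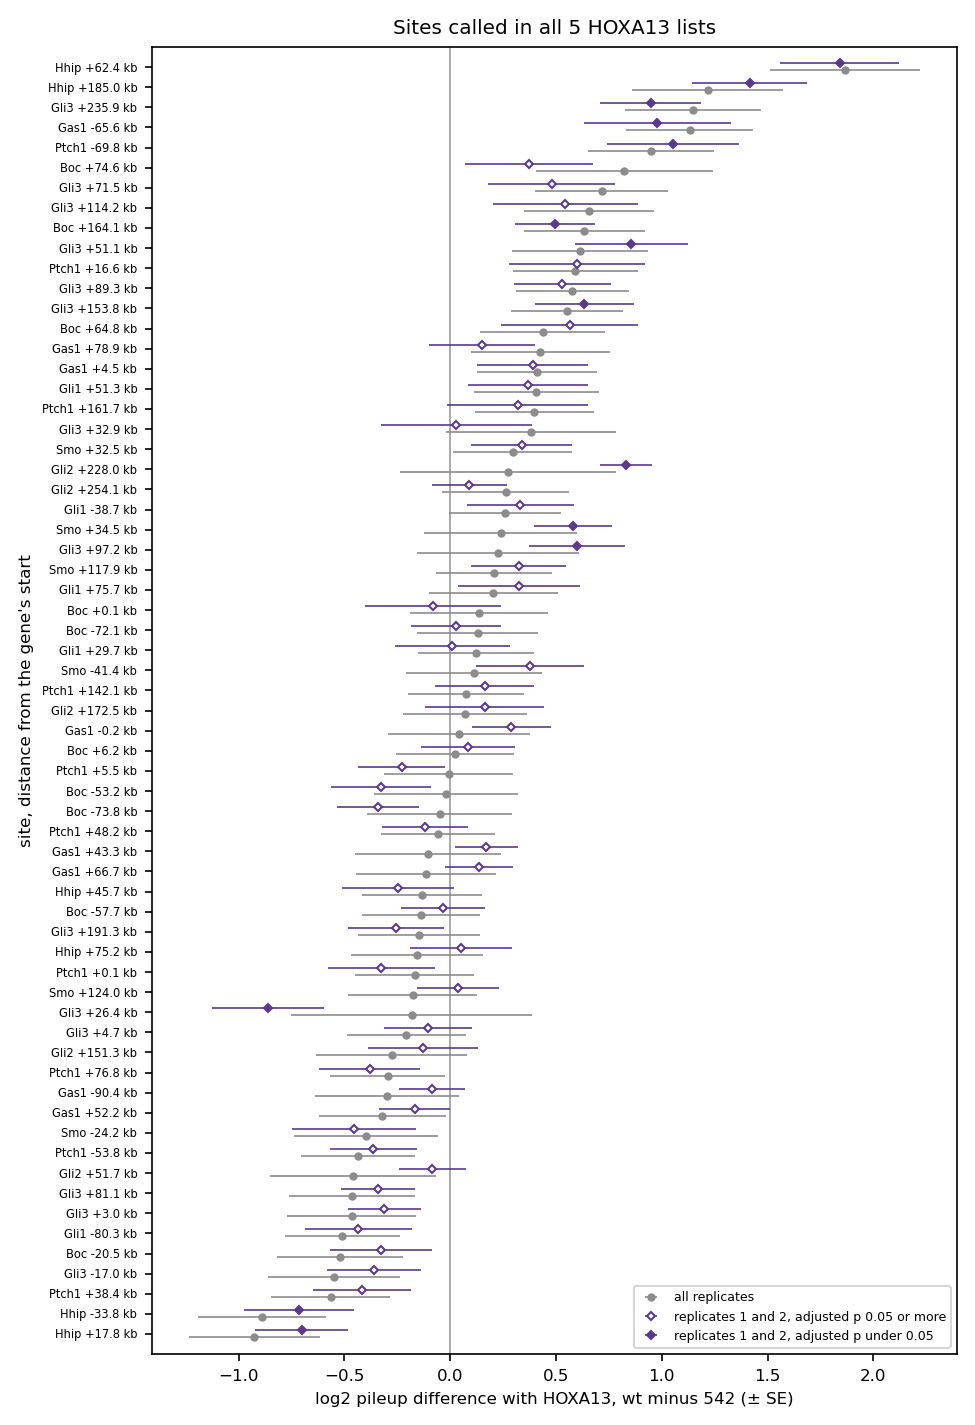
Log2 difference in HOXA13 pileup between wt and 542 (± SE) at the 64 sites called in all 5 HOXA13 lists, from all replicates (grey) and from replicates 1 and 2 only (purple, filled where the adjusted p of limma is under 0.05). Positive values are higher in wt. Hhip +62.4 kb has the largest difference, 1.87 with all replicates.

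The 542 HOXD13 library stands alone for its antibody, stage and genotype, and has values only. It called 225 intervals in the 8 windows, and of the 39 sites in all 6 wt lists it did not call Gli3 +51.1 kb, Gli3 +154 kb and Hhip +62.4 kb. At Gli2 +51.7 kb it reached a fold enrichment of 15.9 and at the Cfap44 promoter near Boc 15.4. At Gli3 +236 kb it had 2.87, at the 31.8th percentile of its list.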

How the data were processed

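CUT&RUN peaks of HOXA13 and HOXD13 were analysed from 1 deposited list per library, grouped by sample title. Per the labels, reads were processed with cutadapt, Bowtie, SAMtools, Picard, bedtools and MACS2. According to the study's methods peaks were called per library with no control, on mm10 for wt and on the mutant genome for 542. The methods text and the listed commands differ on whether whole fragments or read ends were piled up, and the pileups here fit read ends extended to 200 bp. Duplicates, where retained, raise pileups.

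The column deposited as fold enrichment holds the ratio of summit pileup to background. The deposited −log10 p-value is that of a Poisson test, the −log10 q-value its adjusted form, and the integer score deposited by the authors derives from the q-value. Pileups were recovered from fold enrichment and −log10 p, and at least 99.9% came out whole within 0.01 read ends. Summit rows of an interval were joined, and a site took the summit of the wt list in which its percentile of fold enrichment was highest.

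Annotation was GENCODE vM21 on GRCm38, with starts of basic transcripts and of gene records, and sequence was the RefSeq copy of that assembly. limma 3.58.1 (with trend) was fitted over all sites called in every library compared. The genes, lists and rules were chosen with earlier results of these data known. Sites named were promoter sites, the 3 sites per gene called in most wt lists (ties by median percentile), those past an adjusted p of 0.05 and those in all 3 wt lists of only 1 antibody. Sites past that threshold only in replicates 1 and 2, and a few others, were named after their values were seen. Alternatives were other thresholds, window and promoter sizes, scalings, left-out libraries and a replicate block. The scripts were tested on simulated data.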

Additional observations from a re-analysis of the deposited data

How the results depend on the processing

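Thresholds moved the counts most. At a fold enrichment of at least 5 there were 90 sites in the windows in place of 349, 5 in place of 39 in all 6 wt lists and 0 promoters in place of 3, and the density ratio could not be computed because the median of all genes was 0 in 1 library. At a −log10 q of at least 5 there were 199 sites and 21 in all 6 wt lists. With main summits required to lie within 100 bp, 14 sites were called in all 6 wt lists. The consensus share was 12.8% in windows of 25 bp to either side, 28.2% in windows of 100 bp to either side and 66.7% with the shorter core. Leaving out a library in turn gave 286 to 348 sites, 39 to 51 in all wt lists, 3 promoters, density ratios of 1.88 to 2.15 and consensus shares of 17.6% to 20.5%.

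Calls over all sites depended on replicate 3. The antibody fit called 14 sites, and 0 to 472 when a library was left out (472 without wt HOXA13 replicate 3). It called 0 without centring, 1 with fold enrichment, 25 after quantile normalization, 0 at a fold enrichment of at least 5 and 3097 in replicates 1 and 2 only. The genotype fit called 0, and 0 to 6514 when a library was left out (6514 without wt HOXA13 replicate 3, which is the fit on replicates 1 and 2). It called 273 without centring, of which 269 were higher in 542, where the median over all sites was 0.52 higher in 542, and 1 with fold enrichment and 1 at a fold enrichment of at least 5.

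With replicate number as a block the antibody fit called 2352 sites, 6 of them near these genes, and the genotype fit 7168 and 14. Deviations of same-numbered wt libraries correlated at 0.045, 0.38 and 0.69. Pairing of the samples by numbers 1 and 2 was thus not shown, and replicate 1 with HOXA13 correlated best with replicate 2 of HOXD13 (0.63). Replicate 3 of both antibodies deviated together, and HOXD13 replicate 3 correlated at -0.62 and -0.51 with HOXA13 replicates 1 and 2. Deviations were taken from the mean of each antibody and cancel within it. The negative values are therefore tied to the positive one of replicate 3 and add no separate evidence. The main fit has no term for the shared deviation of replicate 3. Without wt HOXA13 replicate 1 the genotype difference changed sign at Gli2 +228 kb, Gli3 +26.4 kb and Gli3 +97.2 kb, and over all left-out libraries it ran from -0.036 to 0.83, from -0.86 to 0.32 and from -0.052 to 0.60. In the other comparisons run the named differences kept their direction, passing the threshold in 59 and missing it in 227. All passes came from fits on replicates 1 and 2 only, without wt HOXA13 replicate 3, or with the replicate block. Sites entered this tally by an unadjusted p under 0.05 in the main limma fit or by passing in replicates 1 and 2. The latter passes were thus fixed by the selection. The cause of these changes was not tested.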
